A study of Arabidopsis thaliana with 9 samples.

Results

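Whole Arabidopsis thaliana seedlings that overexpress the transcription factor MYB30 (MYB30-OE) were compared with wild-type seedlings of the ecotype Col, gene by gene. Both genotypes were in the Col background and grew on MS plates in continuous white light until 4 days old, with 3 libraries each. The labels do not give the promoter that drives MYB30 in the overexpressor or the number of independent lines. Another genotype, the myb30 mutant, is set beside the overexpressor only where stated. Of 33977 gene rows in the authors' deposited table of MYB30-OE against Col, the 25593 that held any read are described. Each row carries 3 values: the log2 fold change, a p-value and the mean log2 CPM, where CPM is a read count scaled by the size of its library. It holds no value of a single library, so no spread within a genotype can be shown, and whether libraries of the same genotype were grown separately is not stated in the labels. Fold changes below are the authors' deposited ones, MYB30-OE over Col. Levels per genotype are CPM implied by the deposited fold change and average, adjusted p-values are Benjamini-Hochberg values over the 25593 genes, and a gene is said to have risen or fallen where its adjusted p was under 0.05. The error given as SE is the standard error on the log2 scale that the deposited p-value implies, and it is approximate.

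MYB30 is an R2R3-type MYB factor. In Arabidopsis it is known as a positive regulator of the cell death that plants mount around an invading pathogen, and it activates genes of the elongase that builds very-long-chain fatty acids, the precursors of cuticular wax, suberin and some membrane lipids. In seedlings it is also known to act with phytochrome-interacting factors in light responses and with a brassinosteroid-pathway factor.

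MYB30 itself stood at 31.7 CPM in Col and 617 CPM in MYB30-OE, a 19.5-fold difference for which the authors' deposited p-value is 0. This gene set the direction in which deposited fold changes are read. The table does not say which copy of MYB30 the reads came from. Among all genes tested, 2939 passed (11.5% of those tested), of which 1533 rose (5.99%) and 1406 fell (5.49%). These shares are the background for every count below. Among the 18593 genes of at least 1 CPM, 7.23% rose and 6.9% fell. Changes were mostly small: 441 genes rose and 228 fell by at least 2-fold, and 183 rose and 82 fell by at least 4-fold. Most 4-fold changes were in genes under 1 CPM, since among genes of at least 1 CPM 254 rose and 108 fell by at least 2-fold, and 67 rose and 17 fell by at least 4-fold. The share that passed climbed with level, from 1.26% of genes under 0.1 CPM to 53.1% of those above 1000 CPM, and the smallest change that passed went from 2.72 to 0.19 on the log2 scale. The median log2 fold change of all genes tested was 0.00. Both shoot and root RNA was present, since in Col the Rubisco small subunit gene RBCS3B stood at 8055 CPM and the root endodermis gene CASP1 at 42.6 CPM. In whole seedlings, a lower level of a transcript per cell and fewer cells of the type that makes it cannot be told apart.

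**Figure D1:**
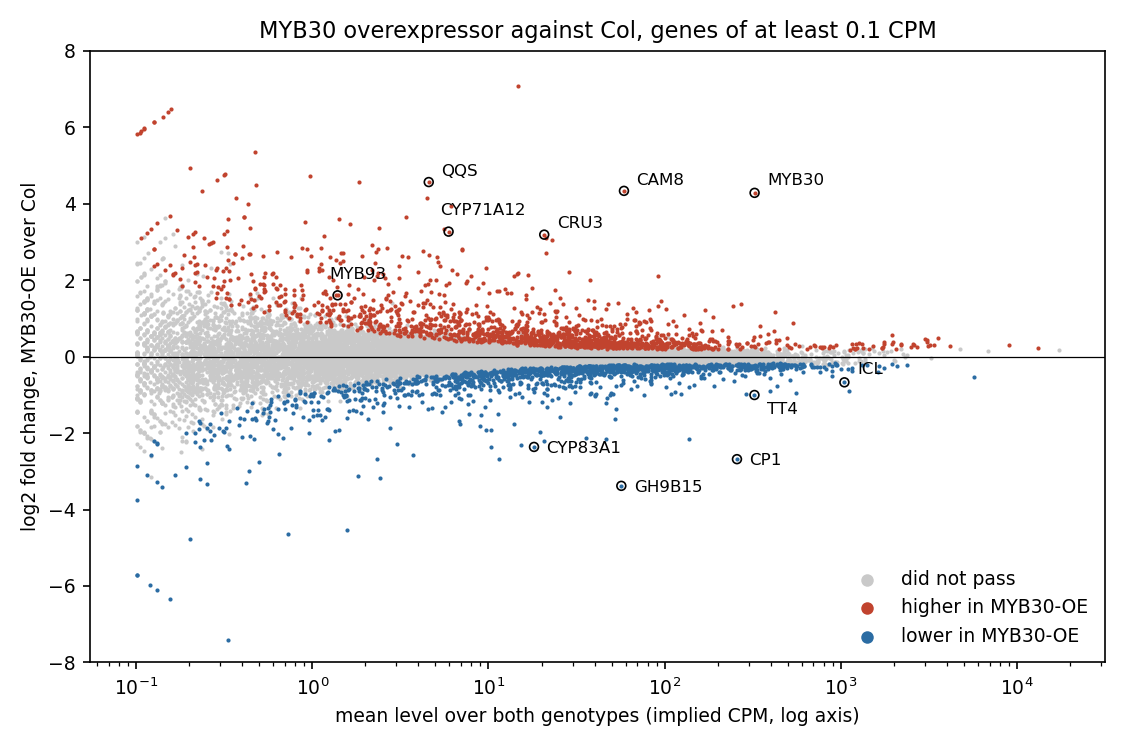
Log2 fold change of MYB30-OE over Col (vertical axis) against the mean implied level in CPM (horizontal log axis) for genes of at least 0.1 CPM. Points beyond the limits of the vertical axis, such as LTP4 at 8.62, are not shown. Red points are genes that rose, blue points genes that fell and grey points genes that did not pass, with 11 genes named in the text circled, among them MYB30 at 4.28 and CAM8 at 4.33.

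Nearly as many fatty acid elongase genes rose as did not pass. Of 23 elongase genes with reads, 11 rose and none fell, against 5.99% higher among all genes, and the median log2 fold change was 0.30. The elongase adds carbon pairs to a fatty acid in a cycle of condensation, reduction, dehydration and a second reduction. The genes for the 3 steps after condensation all rose by similar amounts, with the ketoacyl reductase KCR1 going from 131 to 164 CPM (log2 fold change 0.33, SE 0.08), the dehydratase PAS2 from 201 to 263 CPM (0.38, SE 0.07) and the enoyl reductase CER10 from 134 to 165 CPM (0.30, SE 0.07). The condensing enzymes, which set the chain length, differed more among themselves. KCS6, the main condensing enzyme for wax, rose from 252 to 440 CPM (0.81, SE 0.07, adjusted p = 3.12e-26). KCS2, known for suberin, rose from 6.55 to 13.1 CPM (1.00, SE 0.13). KCS1, KCS3, KCS5 and KCS12 rose by 0.40 to 0.66. Condensing enzymes above 100 CPM that did not pass were KCS10, KCS20 and KCS19: KCS10 had 345 CPM in Col and 392 in MYB30-OE, KCS20 had 144 and 163, and KCS19 had 152 and 150. KCS18, the seed enzyme that makes erucic and eicosenoic acid, had no read in Col and about 31 in MYB30-OE, at least 10.3-fold more against a floor of 3 reads over the group.

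Wax genes downstream of the elongase moved the same way in part. Of 14 wax synthesis and export genes with reads, 5 rose and none fell (median 0.25). CER1, which forms alkanes, rose from 23.05 to 45.9 CPM (0.99, SE 0.09, adjusted p = 1.14e-26), and its partner CER3 rose from 156 to 216 CPM (0.47, SE 0.09). The wax exporter genes ABCG11 and ABCG12 rose by 0.30 and 0.37. CER4, the reductase of the alcohol branch (4.98 and 6.19 CPM), and FATB, which releases the precursor acyl chains (124 and 128 CPM), did not pass. Among the 5 MYB factors of the MYB30 subgroup, MYB96, a known activator of wax genes, fell from 9.46 to 6.29 CPM (-0.59, SE 0.16), and MYB60, a guard cell factor, fell from 9.66 to 6.96 CPM (-0.47, SE 0.15). MYB94 and MYB31 did not pass.

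Suberin, the lipid polymer of root endodermis, seed coat and wounded tissue, showed the larger changes. Of 18 suberin genes with reads, 9 rose and none fell (median 0.63). CYP86A1, the hydroxylase that makes the root ω-hydroxy acids, went from 5.22 to 22.6 CPM (log2 fold change 2.11, SE 0.14, adjusted p = 6.68e-51). CYP86B1, the hydroxylase for longer chains, rose by 0.65 and the acyltransferase GPAT5 by 0.77. All 3 suberin alcohol-forming reductases rose, FAR1 by 0.62, FAR4 by 0.93 and FAR5 by 0.90. The suberin transporter genes ABCG6 and ABCG20 rose by 0.54 and 0.67, while ABCG2 had fewer than 0.2 CPM in both genotypes and did not pass. MYB93, a factor of the endodermis, rose from 0.687 to 2.09 CPM (1.60, SE 0.36), but the suberin-activating factors MYB9, MYB41, MYB92 and MYB107 did not pass. The feruloyl transferase gene ASFT was at 73.0 and 74.9 CPM.

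Root markers stood beside this change as follows. Of 21 root and root hair markers with reads, 4 rose and none fell, and the summed level of the list was 272 CPM in Col and 309 CPM in MYB30-OE. The 4 that rose act in root hairs or their walls: PRP3 (0.78), LRX1 (0.60), EXPA7 (0.60) and COBL9 (0.48). Markers of the endodermis, where suberin is laid down, did not pass and had lower values in MYB30-OE: the 5 Casparian strip genes CASP1 to CASP5 had log2 fold changes from -0.34 to -0.12, and their activator MYB36 had -0.27. The part of root hair number or root share in the suberin result was not tested.

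Cutin genes, for the polyester of the shoot surface, were mixed. Of 16 with reads 4 rose and 1 fell. GPAT6, the acyltransferase known from petals, went from 1.87 to 6.81 CPM (1.86, SE 0.19, adjusted p = 2.20e-19), and the hydroxylases CYP86A2 and CYP86A4 rose by 0.42 and 0.67. MYB16, an activator of cutin genes, fell by 0.37 on the log2 scale. Lipid transfer proteins carry lipids in the cell wall, and 2 neighbouring genes of this family stood out. LTP3 rose from 4.47 to 38.1 CPM (3.09, SE 0.13, adjusted p = 5.65e-131). LTP4, next to it on chromosome 5, had no read in Col and about 143 in MYB30-OE, at least 47.7-fold more. The other 6 of 8 lipid transfer genes with reads did not pass. LTP3 and LTP4 are close copies, so the division of reads between them is uncertain.

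**Figure D2:**
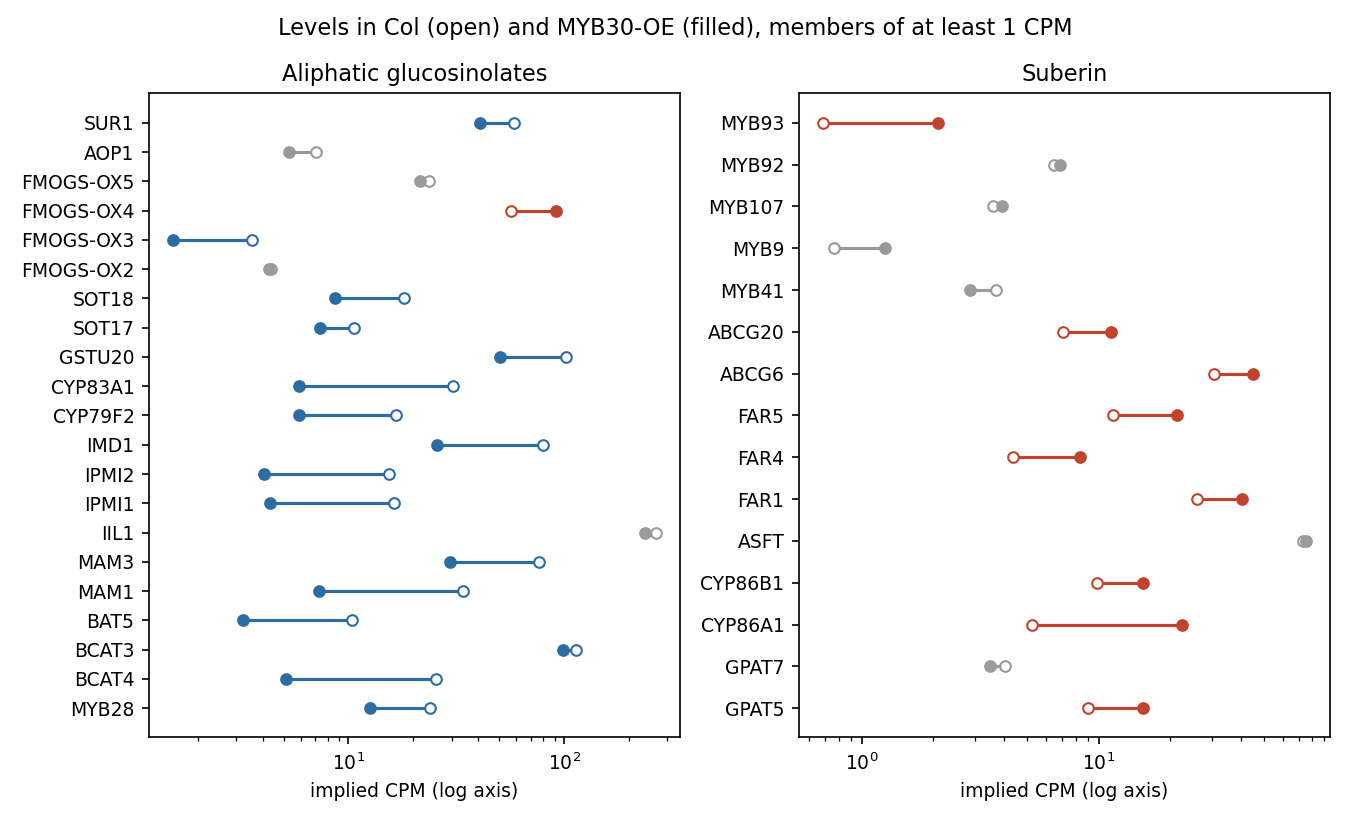
Implied CPM (log axis) in Col (open circles) and MYB30-OE (filled circles) for genes of at least 1 CPM in aliphatic glucosinolate synthesis (left) and suberin synthesis (right), coloured red for genes that rose, blue for genes that fell and grey for genes that did not pass. Filled circles lie left of open ones for 16 glucosinolate genes that fell, and right of them for 9 suberin genes that rose.

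Many flavonoid genes fell. Flavonols and anthocyanins are phenolic compounds that screen ultraviolet light, and their genes are switched on by separate MYB factors. Of 16 flavonol and early flavonoid genes with reads, 10 fell and none rose, against 5.49% lower among all genes (median log2 fold change -0.53). The entry enzyme chalcone synthase (TT4) fell from 432 to 215 CPM (-1.01, SE 0.12, adjusted p = 9.32e-16). Steps after it fell less: chalcone isomerase TT5 by 0.55, the flavonoid hydroxylase TT7 by 0.61 and the flavonol synthase FLS1 by 0.71 on the log2 scale. F3H, the hydroxylase between TT5 and these last steps, was listed at only 0.127 and 0.155 CPM and did not pass. The rhamnosyltransferase UGT78D1 fell from 65.4 to 32.9 CPM. Of the 3 flavonol MYB factors, MYB111 fell from 7.93 to 2.90 CPM (-1.45, SE 0.21) and MYB11 from 0.624 to 0.199 CPM, while MYB12 (3.97 and 3.04 CPM) did not pass.

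Late anthocyanin genes fell as well, 7 of 14 with reads, and 1 rose (median -0.70). The activator PAP1 fell from 2.80 to 1.01 CPM (-1.47, SE 0.27) and its bHLH partner TT8 from 2.91 to 1.67 CPM. The enzymes DFR and LDOX fell by 0.68 and 0.72, and the vacuolar carrier TT19 by 0.85. The exception, MYBL2, is a repressor of the same genes and rose from 8.63 to 14.6 CPM (0.76, SE 0.15). Among 28 lignin and sinapate genes, 10 fell and 4 rose (median -0.14). UGT84A2, a sinapate glucosyltransferase, fell from 65.2 to 33.8 CPM, 4CL3, the CoA ligase tied to flavonoids, fell from 40.9 to 21.4 CPM, and the entry enzyme PAL1 fell from 319 to 228 CPM. PAL4 and the pathogen-induced reductase CCR2 were among those that rose, by 0.39 and 0.76.

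Aliphatic glucosinolates are sulfur compounds made from methionine, and their synthesis had a larger share of genes that fell (72%) than any other list examined. Of 25 genes with reads, 18 fell and 1 rose, with a median log2 fold change of -1.21. Most genes of the early steps, which lengthen the methionine side chain, fell by over 1 on the log2 scale. The aminotransferase BCAT4 went from 25.5 to 5.11 CPM (-2.32, SE 0.15), the condensing enzyme MAM1 from 33.9 to 7.34 CPM (-2.21, SE 0.11, adjusted p = 4.12e-87) and the isomerase subunits IPMI1 and IPMI2 each by 1.91 on the log2 scale. The plastid carrier BAT5 fell by 1.68, the dehydrogenase IMD1 by 1.64 and MAM3 by 1.36. Exceptions among these steps were the aminotransferase BCAT3, which fell by 0.20 (113 to 98.3 CPM), and the isomerase large subunit IIL1, which did not pass (265 and 237 CPM). Core structure genes followed. CYP79F2 fell from 16.7 to 5.90 CPM and CYP83A1 from 30.4 to 5.90 CPM (-2.36, SE 0.13, adjusted p = 7.81e-70). CYP79F1, a close copy of CYP79F2, had about 66 reads in Col and none in MYB30-OE, at least 22-fold fewer, and reads may be divided between the copies in an uncertain way. Later steps included GSTU20 (-1.01), SOT18 (-1.06), SUR1 (-0.53) and SOT17 (-0.51). The activator MYB28 fell from 23.9 to 12.6 CPM (-0.92, SE 0.12), while MYB29 was under 1 CPM and did not pass. FMOGS-OX4, a side-chain oxygenase, was the member that rose (56.5 to 91.8 CPM), whereas its relatives FMOGS-OX1 and FMOGS-OX3 fell and FMOGS-OX2 and FMOGS-OX5 did not pass.

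The branch from tryptophan did not follow. Of 19 indolic glucosinolate and camalexin genes 5 rose and none fell (median 0.05). CYP71A12, an enzyme of inducible indolic defence compounds, went from 1.11 to 10.8 CPM with a wide error (3.27, SE 1.02, adjusted p = 0.0168). The modifying hydroxylases CYP81F3 and CYP81F4 rose by 0.73 and 0.63, the methyltransferase IGMT1 by 0.62 and the activator MYB51 by 0.47. Genes that break glucosinolates down or sit in ER bodies were divided, 5 lower and 2 higher of 21. BGLU23, the main β-glucosidase of root and seedling ER bodies, fell from 6734 to 4651 CPM (-0.53, SE 0.09), while its close relatives BGLU21 and BGLU22 rose by 0.43 and 0.51. ESP, which steers breakdown towards nitriles, fell from 3.68 to 1.36 CPM. The largest changes in this enzyme family lay outside the list: BGLU24 went from 0.5 to 6.32 CPM and BGLU19 from 0.999 to 10.2 CPM.

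Transcription factor genes of the first minutes of a stress response rose in part, in seedlings for which the labels give no stress treatment. Of 35 rapid stress transcription factors with reads, 15 rose and 1 fell (median 0.48). WRKY40, a repressor induced by microbial signals, went from 3.24 to 16.2 CPM (2.32, SE 0.34) and WRKY33, which activates camalexin genes, from 23.3 to 55.8 CPM (1.26, SE 0.18). The zinc finger genes SZF1 and STZ rose by 1.12 and 1.04, and the NAC gene ANAC019 by 2.07 from a low level (0.235 to 1.00 CPM). WRKY29 was the member that fell (-0.49). Across the whole WRKY family 12 of 66 rose and 2 fell, and in the ERF and DREB family 4 of 70 rose and 1 fell, the latter near the background.

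Touch and calcium genes showed the same direction, 9 of 13 higher and none lower (median 0.56). TCH3, a calmodulin-like gene, went from 29.8 to 78.4 CPM (1.4, SE 0.14, adjusted p = 6.22e-20) and TCH4, a xyloglucan-modifying wall enzyme, from 26.6 to 69.4 CPM (1.38, SE 0.21). The kinase genes MPK3 and CPK32 rose by 0.56 and 0.67. These genes respond within minutes to handling, and the labels do not describe the harvest. The part of harvest in these values was not tested.

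Some jasmonate signalling genes rose. Jasmonates are the hormones of wounding, and JAZ proteins repress their targets and are themselves induced by the hormone. Of 20 signalling and turnover genes 7 rose and none fell. JAZ1 went from 20.8 to 44.5 CPM (1.1, SE 0.19), JAZ10 from 5.74 to 10.8 CPM and JAZ7 from 0.285 to 0.979 CPM. The hormone-inactivating hydroxylase CYP94B3 rose from 2.25 to 5.71 CPM (1.34, SE 0.29). Of 15 synthesis genes 3 rose (LOX4, AOC3 and AOS) and 1 fell (AOC4). The response genes diverged, with 4 higher and 2 lower of 16. VSP1, a vegetative storage protein, rose from 0.590 to 4.15 CPM (2.81, SE 0.24, adjusted p = 1.65e-28) and TAT3, a tyrosine aminotransferase, from 3.07 to 12.1 CPM. CLH1, a chlorophyllase, fell from 31.4 to 14.2 CPM (-1.14, SE 0.12), and LOX1 fell from 129 to 73.8 CPM.

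Salicylic acid genes passed at a share near the background. Of 21 pathogenesis-related and salicylic acid genes 1 rose, the regulator CBP60g (1.85 to 3.78 CPM), and 1 fell. That is 4.76% in each direction, against 5.99% higher and 5.49% lower among all genes. The one that fell, the marker PR1, rested on about 24 reads in Col and 2 in MYB30-OE, 12.0 times fewer (exact 95% limits 2.98 and 105, which cover counting error only). The synthesis gene ICS1 was at 22.9 and 20.4 CPM and did not pass. Of 24 cell death and hypersensitive response genes 4 rose and 1 fell. NHL3 rose by 0.71 and MC3, a metacaspase, by 0.40. SAG13, a senescence and cell death marker, had about 2 reads in Col and 93 in MYB30-OE, a ratio of 46.5 (interval 12.5 to 390). LSD1, EDS1, PAD4 and the metacaspase genes MC1 and MC2 did not pass. Of 135 immune receptors of the nucleotide-binding leucine-rich repeat class 13 rose (9.63%) and none fell, with a median of 0.12 and 122 that did not pass. The largest rise was that of AT5G41740 (3.87 to 13.5 CPM). Of 125 receptor-like kinases 20 rose and 3 fell, and CRK12 rose from 0.386 to 1.88 CPM.

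**Figure D3:**
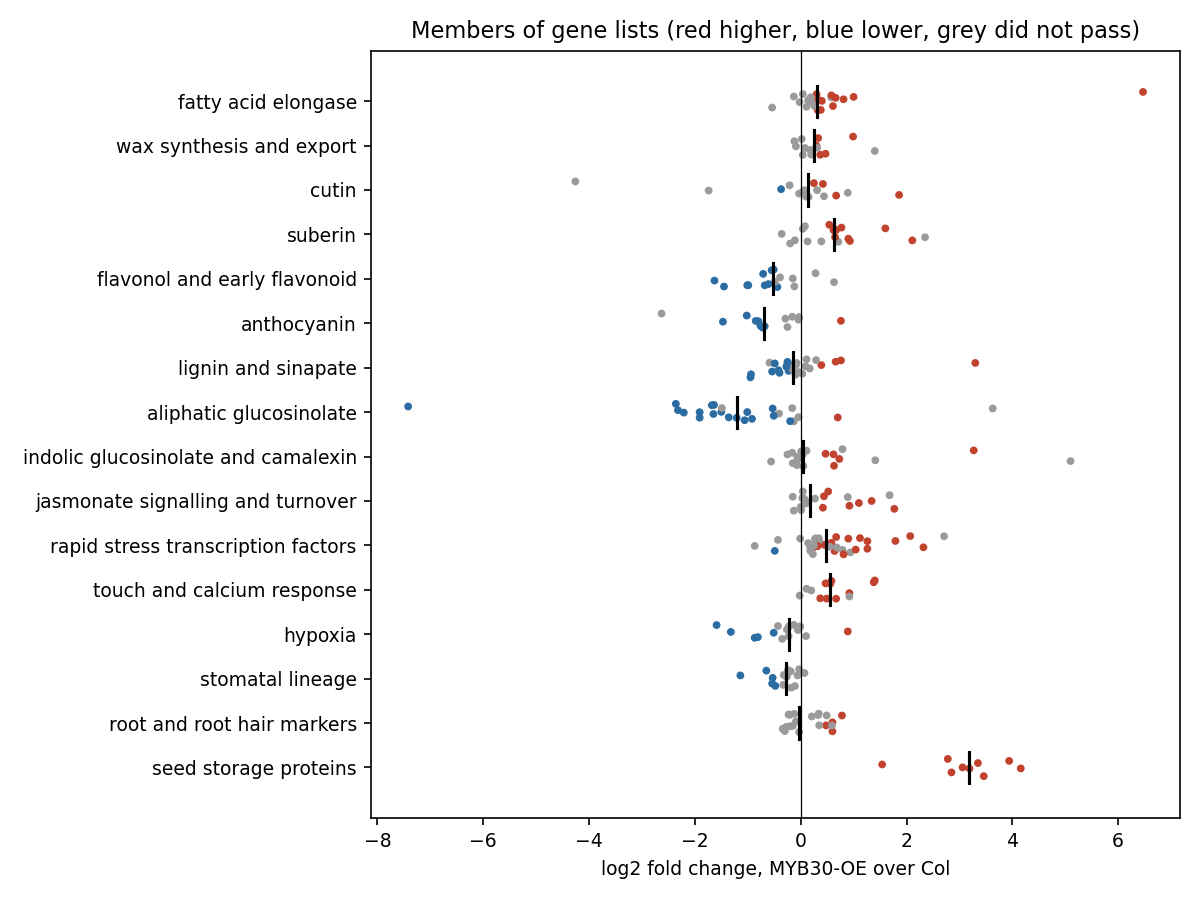
Log2 fold change of MYB30-OE over Col (horizontal axis) for each member with reads of 16 gene lists, as points coloured red where the gene rose, blue where it fell and grey where it did not pass. Black bars are list medians, which lie at 0.63 for suberin, at -1.21 for aliphatic glucosinolates and at 3.19 for seed storage proteins.

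Among cell wall loosening enzymes that passed, more fell than rose. Expansins loosen the wall of growing cells. Of 26 with reads 9 fell and 3 rose. EXPA1 fell from 175 to 101 CPM (-0.80), EXPA5 from 54.1 to 26.4 CPM (-1.03, SE 0.09, adjusted p = 3.81e-27), and the root hair expansin EXPA7 was among those that rose. Of 29 xyloglucan endotransglucosylases, which cut and rejoin wall polymers, 7 fell and 4 rose. The largest fall at over 1 CPM was that of XTH19, from 64.9 to 27.9 CPM (-1.22, SE 0.09). TCH4, named above, was among those that rose (1.38). The family as a whole did not lean lower, with a median of 0.09 and 19 members above 0 against 10 below. Of 177 pectin enzymes and their inhibitors 21 fell and 9 rose. The polygalacturonases ADPG1, known from pod opening, and PGAZAT, known from organ shedding, fell from 4.36 to 0.482 CPM and from 19.9 to 3.12 CPM. The endoglucanase-family gene GH9B15 fell from 104 to 9.94 CPM (-3.38, SE 0.13, adjusted p = 4.97e-142) and the cysteine protease gene CP1 from 446 to 69.4 CPM (-2.68, SE 0.11, adjusted p = 8.95e-121).

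Genes described as extensins or proline-rich proteins went the other way in number. Of 186 genes described as extensins, hydroxyproline-rich or proline-rich proteins, 37 rose and 8 fell. The description alone defined this set, so it is not a count of structural wall proteins. TIC40, which fell, and PERK1, which rose, are among its members. PELPK1 rose from 101 to 237 CPM, and EPR1 from 18.3 to 44.3 CPM, whereas EXT4 and EXT3, the most abundant, fell from 1453 to 779 CPM and from 1301 to 1010 CPM. Of 65 class III peroxidases, which cross-link wall polymers, 14 fell and 10 rose. AT2G35380 rose from 1.45 to 8.78 CPM and AT5G19890 fell from 5.02 to 1.02 CPM. Of 86 GDSL lipases 15 fell and 5 rose, and those with the largest rises at over 1 CPM were AT2G23540 (5.27 to 24.1 CPM) and AT1G74460 (8.09 to 19.7 CPM). Of 51 arabinogalactan protein genes 7 rose and 2 fell. In the wider lipid transfer family 14 of 87 rose and 5 fell, and EARLI1 fell from 76.0 to 16.9 CPM.

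Ribosomal protein genes that fell did so by small amounts. The set held genes whose product names a ribosomal protein, without those whose product names chloroplast, plastid or mitochondria. Of 320 such genes with reads, 101 fell, 2 rose and 217 did not pass. The median log2 fold change was -0.18, with quartiles of -0.25 and -0.10. The summed level was 69840 CPM in Col and 61160 CPM in MYB30-OE. The largest falls were 1.45-fold (RFC3) and 1.43-fold (HLL). Of the 2 that rose, 1, AT5G24490, is described as a 30S ribosomal protein, the small subunit of organelle ribosomes. Organelle genes thus remain in the set, and the genes that fell, RFC3 and HLL included, were not sorted by ribosome type. Proteasome subunits, another large set of housekeeping genes, had 0 of 45 past the threshold by the deposited test, with a median of -0.03. Their summed level in Col was 3078 CPM, so the sets are not matched in level. Among all 1779 genes from 100 to 1000 CPM, 319 fell and 156 rose. From 10 to 100 CPM, 647 of 10031 fell and 735 rose. Of 21 cell cycle genes 3 fell and none rose, the mitotic cyclin CYCB1;1 from 10.7 to 7.46 CPM, the G1 cyclin CYCD3;1 from 20.4 to 15.5 CPM and TSO2, a ribonucleotide reductase subunit, from 96.9 to 74.3 CPM.

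Some photosynthesis genes rose by small amounts. Of 35 genes described as photosystem subunits 13 rose and 1 fell (median 0.16), PSAL going from 1533 to 2006 CPM (0.39, SE 0.07). Of 26 carbon fixation and photorespiration genes 9 rose and 1 fell (median 0.16), including the photorespiratory SHM1 (1729 to 2239 CPM), GLDP1 (0.33) and AGT (0.30). The Rubisco activase gene RCA (6510 and 7251 CPM) did not pass, and RPI2 was the one that fell (14.6 to 9.80 CPM). Many of these genes are abundant, and among all 98 genes above 1000 CPM, which include members of both lists, 37 rose and 15 fell. Stomatal lineage genes, in contrast, had 5 lower and none higher of 16 (median -0.27). They included SPCH, which starts the lineage (10.6 to 7.61 CPM), MUTE, which ends its divisions (2.90 to 1.32 CPM, -1.14, SE 0.23), the receptor-like gene TMM (21.1 to 14.5 CPM), the peptide gene EPF2 and the polarity gene BASL. FAMA (13.3 and 11.05 CPM) did not pass. Of 10 shoot epidermis and trichome markers 4 fell and 1 rose: ATML1 and PDF2, the identity factors of the epidermis, fell by 0.25 and 0.35, and PDF1, a gene they activate, rose by 0.26. Of 13 vascular markers only PP2-A1, a phloem lectin gene, passed (18.6 to 24.9 CPM). A change in the share of epidermal or guard cells cannot be told apart from a change per cell.

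**Figure D4:**
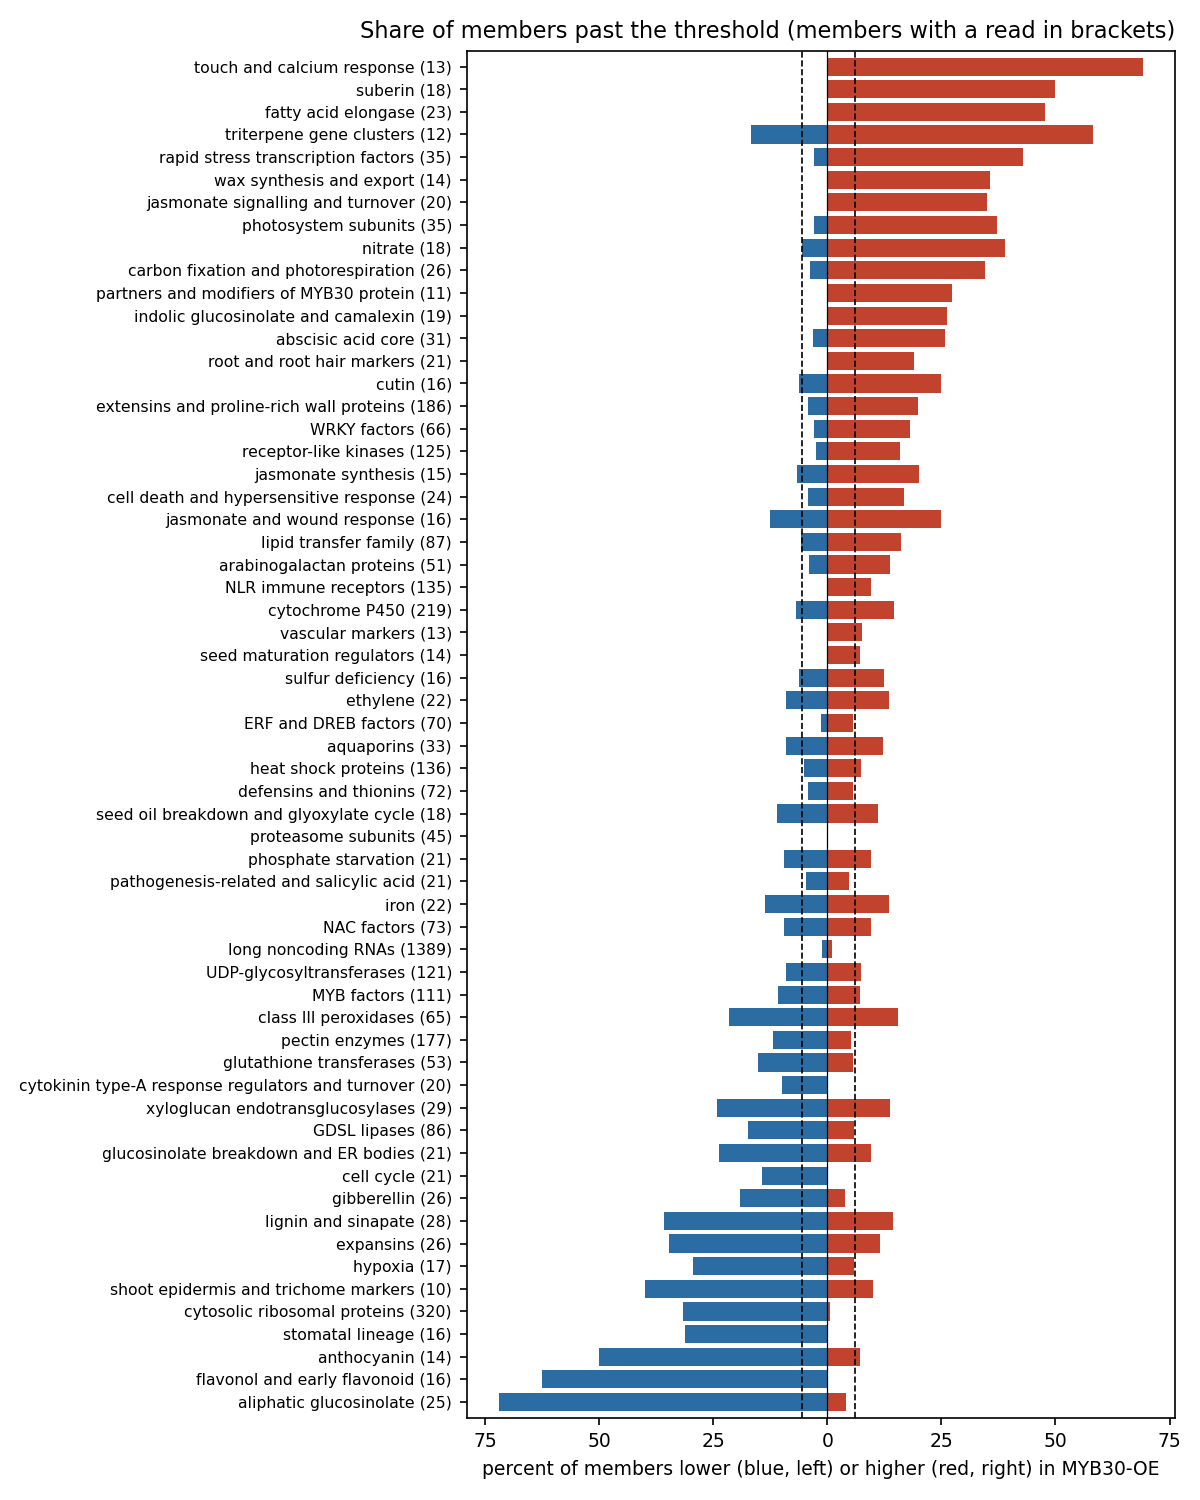
Percent of members that fell (blue, to the left) or rose (red, to the right) in MYB30-OE for lists and families of at least 10 genes with reads, whose number stands in brackets. Dashed lines mark the shares among all genes tested, 5.49% lower and 5.99% higher, and bars reach 72% lower for aliphatic glucosinolates and 69.2% higher for touch and calcium genes.

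Hormone genes outside jasmonate changed less evenly. Of 31 abscisic acid core genes 8 rose and 1 fell. They included the rate-limiting synthesis gene NCED3 (2.87 to 5.26 CPM), the catabolic hydroxylases CYP707A1 and CYP707A3 (log2 fold change 1.32, SE 0.23, for CYP707A3), and the phosphatase genes HAI1 (1.16) and HAI2 (1.34), which are induced by the hormone and repress its signalling. The receptor gene PYL1 fell by 0.28. Of 26 gibberellin genes 5 fell and 1 rose: the synthesis gene GA3OX1 fell from 11.5 to 8.15 CPM and the gibberellin-induced genes GASA4 and GASA6 fell by 0.34 and 0.75. The catabolic GA2OX1 (-1.15) and RGL1, a repressor of gibberellin signalling (-0.63), fell too, and the member that rose was GASA1, of the same family as GASA4 (203 to 256 CPM, 0.34, SE 0.09). Of 22 ethylene genes 3 rose and 2 fell, the synthesis enzymes diverging, with ACS7 at 3.64 and 8.55 CPM and ACO1 at 11.3 and 5.09 CPM. Of 20 cytokinin genes 2 fell and none rose (ARR16 and CKX5). Of 11 genes for partners and modifiers of the MYB30 protein 3 rose. They were PIF4 (21.3 to 30.3 CPM), PIF5 (47.0 to 55.2 CPM) and MIEL1, a ubiquitin ligase that marks MYB30 for destruction (130 to 153 CPM). The photoreceptor genes PHYA and PHYB, the SUMO ligase SIZ1 and the factors HY5, BES1 and BZR1 did not pass.

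Nitrate, iron and hypoxia genes gave small groups of changes. Of 18 nitrate genes 7 rose and 1 fell. BT1, a nitrate-induced scaffold gene, went from 51.4 to 140 CPM (1.45, SE 0.11, adjusted p = 2.69e-37), its relative BT2 rose by 0.35, and the nitrate reductases NIA1 and NIA2 rose by 0.24 and 0.33. GLN1;1 fell by 0.31. Of 22 iron genes 3 rose and 3 fell. The deficiency-induced factors BHLH39, BHLH100 and BHLH101 rose by 0.82, 0.97 and 1.29, and their relative BHLH38 (3.05 and 4.68 CPM) did not pass. Another deficiency-induced factor, MYB10, fell (-1.79, SE 0.55) at a level under 1 CPM, and the nicotianamine synthases NAS1 and NAS4 fell from 33.6 to 19.3 CPM and from 23.1 to 12.9 CPM. Of 21 phosphate starvation genes 2 rose and 2 fell, and of 16 sulfur deficiency genes 2 rose and 1 fell. Of 17 hypoxia genes 5 fell and 1 rose. HB1, a nonsymbiotic haemoglobin, went from 38.3 to 12.7 CPM (-1.59, SE 0.20), the alcohol dehydrogenase ADH1 from 30.6 to 12.2 CPM and PCO1, an oxygen-sensing oxidase, from 23.5 to 13.4 CPM. Among abundant genes DIN10, a raffinose synthase known from darkened leaves, rose from 260 to 588 CPM, and BXL1, a β-xylosidase, from 323 to 511 CPM.

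Seed transcripts were higher in MYB30-OE. Storage proteins fill the embryo before germination and their messages normally fade in seedlings. All 9 storage protein genes with reads rose (median 3.19), CRU2 from 0.473 to 8.52 CPM, SESA2 from 0.746 to 11.5 CPM, CRA1 from 4.93 to 41.0 CPM and CRU3 from 4.09 to 37.4 CPM. All 6 oil body genes with reads rose as well (median 2.2), OLEO2 from 1.09 to 7.36 CPM. The summed level of the storage list was 14.2 CPM in Col and 125 CPM in MYB30-OE. Seed-type aquaporin TIP3;1 rose from 0.322 to 1.55 CPM, as 1 of 4 aquaporins of 33 that rose, with 3 that fell. The regulators of seed maturation did not follow: of 14 with reads, bZIP53 rose (0.27) and no other passed. Nor did the oil breakdown genes rise together, with 2 higher and 2 lower of 18. The glyoxylate cycle gene ICL fell from 1289 to 809 CPM, and PCK1, of the same list, from 700 to 526 CPM. Copies of the albumin genes are alike, so reads may be divided among them in an uncertain way. The part of late-germinating seeds in these values was not tested.

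Genes that passed in 1 direction were in places neighbours on the chromosome. Counting runs of at least 3 adjacent annotated genes, 11 runs of 35 genes rose and 7 runs of 21 genes fell. The longest were of 4 genes. One is the albumin array SESA1 to SESA4 on chromosome 4 (TAIR10, 13607329 to 13614283). The other is the thalianol cluster on chromosome 5 (19428888 to 19461689), which makes a root triterpene and in which AT5G47980, THAD, THAH and the synthase THAS1 rose by 0.90, 0.60, 0.88 and 0.93, THAS1 from 52.9 to 100 CPM. In the list of triterpene cluster genes 7 of 12 rose and 2 fell. The marneral synthase MRN1 rose from 14.9 to 33.9 CPM, and the baruol synthase BARS1 fell from 1.77 to 0.587 CPM. On chromosome 5 (23925085 to 23931889) LTP4, LTP3 and AT5G59330 rose side by side, but AT5G59330 had no read in Col and only about 12 in MYB30-OE. Among falls, the invertase or pectin methylesterase inhibitor genes AT5G46940, AT5G46950 and AT5G46960 on chromosome 5 (19058168 to 19062780) formed a run, AT5G46960 going from 31.4 to 7.98 CPM. On chromosome 2 (7911054 to 7919277) the run AT2G18180, AT2G18190 and AT2G18193 fell. AT2G18180 stood below 1 CPM in both genotypes and AT2G18193 at 8.82 and 6.40 CPM. AT2G18190 had only about 12 reads in Col and none in MYB30-OE.

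Several of the largest rises lay outside the pathway lists. The noncoding RNA gene AT2G01422 went from 0.214 to 29.4 CPM (log2 fold change 7.08, SE 0.20, adjusted p = 1.29e-266). QQS, a gene found only in Arabidopsis thaliana that affects starch content, rose by 4.57, and CAM8, a divergent calmodulin, from 5.55 to 112 CPM (4.33, SE 0.15, adjusted p = 4.89e-179). Most of the 15 largest rises of at least 1 CPM also passed as higher in the authors' deposited table of myb30 against Col. In that comparison 10.8% of all genes were higher and 10.7% lower. The storage protein genes CRU2, SESA2, PAP85, SESA1 and CRU3 are among these rises, while MYB30 itself was lower in myb30. Fewer of the 15 largest falls passed as lower there. In myb30 AT2G01422 had a log2 fold change of 7.16, CAM8 one of 4.12 and QQS one of 3.99. LBD26, which fell by 2.69 in MYB30-OE, had -4.21 in myb30. CYP87A2 had -2.35 in MYB30-OE and -2.25 in myb30. The comparisons share the 3 Col libraries, so such values are not independent. Other leading genes did not pass in myb30, such as GH9B15 (-0.16 there), CP1 (0.03), MAM1 (-0.04) and BGLU24 (0.17).

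The lists are set side by side with the mutant in the same way, with 10.8% of genes higher and 10.7% lower in myb30 against the shared Col libraries. Elongase genes were 11 higher and 0 lower in MYB30-OE, and 1 higher and 7 lower in myb30. The 1 higher in myb30 was KCS18, which was thus higher in both comparisons. Suberin genes were 9 and 0 in MYB30-OE, and 1 and 10 in myb30, where GPAT5 had a log2 fold change of -1.80 and CYP86B1 one of -1.68. CYP86A1 (-0.43 in myb30), MYB93 (-0.16) and FAR4 (-0.44), which rose in MYB30-OE, did not pass in myb30. Rapid stress factors were 15 and 1, and 1 and 12. Ribosomal protein genes were 2 and 101, and 211 and 25. Aliphatic glucosinolate genes gave no such contrast, with 1 and 18 in MYB30-OE but 3 and 2 in myb30. Seed storage genes were all higher in both, with a median log2 fold change of 3.19 in MYB30-OE and 5.56 in myb30. Stomatal lineage genes were 0 and 5 in each, with a median of -0.27 in each. Shoot epidermis and trichome markers were 1 and 4 in MYB30-OE, and 1 and 3 in myb30. No test of differences between the comparisons was made.

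The remaining families were divided or near the background. Of 219 cytochrome P450 genes 32 rose and 15 fell, of 121 UDP-glycosyltransferases 9 rose and 11 fell, and of 53 glutathione transferases 3 rose and 8 fell. Of 111 MYB genes 8 rose and 12 fell, and of 73 NAC genes 7 rose and 7 fell. Heat shock proteins had 10 higher and 7 lower of 136, and defensins and thionins 4 higher and 3 lower of 72. Of 1389 long noncoding RNAs with reads 13 rose and 15 fell, and their levels were low, 147 reaching 1 CPM.

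Promoter sequence was examined for motifs of the factors concerned, in windows from 250 bases before to 50 bases after each annotated start. The MYB element AACAAAC was present on either strand in 14.3% of windows of genes that rose, 13.1% of those that fell and 13.3% of all 23911 windows. AC elements, which are the MYB sites ACCAAAC or ACCAACC or ACCTAAC or ACCTACC, were present in 18.7%, 18.9% and 17.6%. CACGTG, the G-box bound by many bHLH and bZIP factors, was in 15.3% of windows of genes that rose, 8.36% of those that fell and 8.80% of all windows, and in 20.5% of 429 genes that rose by at least 2-fold. Among genes of at least 1 CPM the G-box shares were 15.1%, 8.69% and 9.69%. AC elements were found in 13 of 25 aliphatic glucosinolate windows and 5 of 23 elongase windows, and the G-box in 7 of 25 and 0 of 23. These are counts of letters in a window and show no binding.

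The 250 bases before the start of the gene with the largest change among the called members of at least 1 CPM in each of 4 lists are given to show what such windows hold, 5′ to 3′ on the gene's strand (minus in all 4, TAIR10.1 sequence from RefSeq), with matches to any of these motifs in capitals. They belong to KCS2 (chr1:1122527-1122776), MYB111 (chr5:20001379-20001628), CYP83A1 (chr4:7992312-7992561) and CYP94B3 (chr3:17976671-17976920). The CYP83A1 window holds 3 matches, 2 AC elements on the opposite strand and 1 G-box. The other windows hold none before the start, and KCS2 has 1 AC element after it, which is not shown.
KCS2: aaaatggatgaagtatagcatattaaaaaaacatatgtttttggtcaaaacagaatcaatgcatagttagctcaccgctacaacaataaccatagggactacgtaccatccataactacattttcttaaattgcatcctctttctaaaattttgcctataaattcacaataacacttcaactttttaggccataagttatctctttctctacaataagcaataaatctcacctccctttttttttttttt
MYB111: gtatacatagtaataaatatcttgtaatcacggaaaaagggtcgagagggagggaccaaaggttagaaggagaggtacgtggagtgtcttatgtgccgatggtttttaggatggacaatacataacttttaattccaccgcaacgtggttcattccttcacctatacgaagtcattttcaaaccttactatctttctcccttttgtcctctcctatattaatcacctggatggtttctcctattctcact
CYP83A1: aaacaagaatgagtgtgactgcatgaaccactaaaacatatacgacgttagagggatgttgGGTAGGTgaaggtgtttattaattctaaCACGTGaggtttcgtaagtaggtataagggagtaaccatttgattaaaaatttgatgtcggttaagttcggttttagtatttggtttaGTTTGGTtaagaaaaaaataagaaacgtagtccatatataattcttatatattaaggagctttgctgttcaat
CYP94B3: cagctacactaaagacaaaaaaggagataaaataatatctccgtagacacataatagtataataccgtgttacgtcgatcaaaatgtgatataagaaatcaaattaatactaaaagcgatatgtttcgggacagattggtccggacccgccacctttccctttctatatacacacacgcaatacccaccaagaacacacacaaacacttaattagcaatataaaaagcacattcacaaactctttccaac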

How the data were processed

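RNA of whole seedlings was sequenced, with 3 libraries for Col and 3 for MYB30-OE. Per the submitters' processing notes TopHat, Cufflinks and Cuffdiff were used on TAIR10, and versions, strand setting and order are not given in the sources used here. Per the file headers, the authors deposited 3 values per gene, namely the log2 fold change, the mean level as log2 CPM and the raw p-value, in columns of the kind edgeR's exact test writes. The authors' deposited gene annotation, in TAIR10 coordinates, gave gene order. No single-library count was used, so depth per library was inferred only as a mean, about 33136611 reads. At that depth 1 read over the 3 libraries of a genotype is 0.0101 CPM.

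The 8384 gene rows (24.68%) at the lowest average log2 CPM, which hold no reads, were left out, and p-values were adjusted by the Benjamini-Hochberg method over the other 25593 with a threshold of 0.05. The p-values measure only the spread between libraries, which may be technical. CPM per genotype was computed from the deposited average and fold change, taking 2 reads as added to the average and 0.125 to the fold change and equal library sizes, and is approximate. Where a genotype had no implied read, a floor of 3 reads over the group was used. Intervals of read ratios are exact binomial at 95% and cover counting error only.

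The members and the gene lists were chosen with earlier results of these data known. Genes named were MYB30, the 15 largest rises and falls of at least 1 CPM, the 10 most abundant genes changed at least 1.5-fold, the 4 largest changes in each list and the longest neighbour runs, and not all of these are described. Further list members were named after their values were seen. Families were taken from product descriptions, and after the data were seen the thionin pattern was restricted to whole words because it matched methionine. Symbols shared by several genes were resolved by locus. Promoter windows were read from the TAIR10.1 genome, in which 99.96% of coding transcripts of the authors' annotation began with ATG. The computation was run on simulated data built with the same added reads and equal library sizes. That run could not test whether these assumptions hold for the deposited values. Python 3.11.15, pandas 2.3.3, numpy 2.4.6, scipy 1.17.1 and matplotlib 3.10.9 were used. Transposable element tables and the table of MYB30-OE against myb30 were not used here.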

Additional observations from a re-analysis of the deposited data

How the results depend on the processing

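No paired analysis was possible because the deposited tables hold no single-library values, and no library could be left out for the same reason. With an adjusted p threshold of 0.01 the count of genes called was 1876, of which 851 were lower. With a Bonferroni threshold it was 752, with 442 higher and 310 lower, and with a fold of at least 2 it was 669, with 441 higher and 228 lower. These settings call fewer genes by construction. Restricting the adjustment to genes of at least 1 CPM gave 2810, adjusting over all gene rows gave 2672 and centring on the median gave 2939. Centring keeps the p-values, so its count was fixed in advance. No list median examined changed sign under the settings tried. Centring shifted values by only 0.0016 and a pseudocount keeps the sign of each member, so neither could readily change a sign. A pseudocount of 1 CPM brought 8 of 64 medians closer to 0 by more than the median approximate SE of their members. These included suberin from 0.63 to 0.44, anthocyanin from -0.70 to -0.38, aliphatic glucosinolates from -1.21 to -0.85 and wound response from 0.58 to 0.04. The others were oil bodies from 2.2 to 0.95, seed storage from 3.19 to 2.26, nitrate from 0.28 to 0.09 and triterpenes from 0.72 to 0.50. Further medians moved by less than that error, such as rapid stress factors from 0.48 to 0.30 and elongase genes from 0.30 to 0.23. With members of at least 1 CPM only, the nitrate median was 0.04 and the aliphatic glucosinolate median -1.06. Of 268 named genes, 9 no longer passed when all gene rows were adjusted together, 54 at 0.01, 131 under Bonferroni and 117 under the 2-fold setting. Shares of the G-box among genes of at least 1 CPM were computed as an alternative chosen after seeing the data. Depth limits genes under 0.1 CPM, where the median approximate standard error was 1.94 on the log2 scale. Levels per genotype rest on equal library sizes, which the tables cannot show.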
